A study of Mus musculus with 25 samples.

Results

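Macrophages were picked out of a Drop-seq atlas of the adult mouse testis by the transcripts their barcodes carried. Drop-seq captures single cells in droplets with barcoded beads and counts unique molecular identifiers (UMIs), 1 per captured transcript, from the 3′ ends of mRNAs. A barcode was taken as a macrophage when it held at least 200 UMIs, at least 3 UMIs summed over C1qa, C1qb, C1qc, Csf1r, Cd74, Lyz2, Tyrobp and Fcer1g from at least 2 of these 8 genes, and these made up at least 0.3% of its UMIs. In all, 83 of 43,469 barcodes with at least 200 UMIs in 21 whole-testis libraries met this rule, 6 of 25,594 in wild type, 61 of 9618 in Mlh3-/-, 15 of 5732 in Cul4a-/- and 1 of 2525 in CNP eGFP BAC TRAP.

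The 11 wild-type (C57BL/6) libraries came from testes of mice aged 3 months 1 day to 9 months 14 days. The 6 Mlh3-/- libraries (B6;129) came from mice aged 3 months 22 days for replicate 1, 8 months 30 days for replicates 2 and 3, and 2 months 21 to 23 days for replicates 4 to 6. The strain names are those of the labels, and the study's methods write C57BL/6J for wild type and CNP and B6.129 for Mlh3-/-. The labels give 1 month 18 and 21 days for the 2 Cul4a-/- libraries (B6;129), and 2 months 14 and 16 days for the 2 CNP eGFP BAC TRAP libraries (C57BL/6), and the study's own sample sheet gives the ages of these last groups the other way round. MLH3 is needed for meiotic crossovers, and testes that lack it make few late germ cells. CUL4A holds together an E3 ubiquitin ligase. The CNP line has a transgene, driven by the Cnp promoter, that puts eGFP on ribosomes. Wild-type replicates 1 and 2 were dissociated with enzymes and all other libraries mechanically, and wild-type replicates 1 and 3 and Mlh3-/- replicates 1 and 2 were sequenced on a MiSeq. The wild-type libraries are described as coming from different animals, but nothing in the sources used here says so of the other groups, so p-values measure the spread between libraries, which may be partly technical.

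Testis macrophages live among the Leydig cells of the interstitium and on the surface of the seminiferous tubules. They take up dying cells and debris, degrade them in lysosomes, and need signalling through the receptor encoded by Csf1r to survive. Interstitial macrophages are known for CSF1R with little MHC class II, and those around the tubules for MHC class II with little CSF1R. C1qa, C1qb and C1qc encode the chains of complement C1q, Cd74 the invariant chain of MHC class II, Lyz2 lysozyme, and Tyrobp and Fcer1g the signalling adaptors of many myeloid receptors.

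Library totals ranged from 357,235 to 9,745,302 UMIs. The macrophage barcodes held a median of 938 UMIs (233 to 5441) and 99,671 UMIs in all, and the other barcodes a median of 634. Of 46,911 barcode sequences, 412 occurred in more than 1 library. The sequences of 4 macrophage barcodes also occurred in another library, and none belonged to macrophages of both. The share of mitochondrial transcripts was over 10% in 29 of the 83, all of them Mlh3-/-. In Mlh3-/- replicates 1 and 3, 452 of 509 and 714 of 795 barcodes passed a gate on Leydig cell genes, and every macrophage barcode of these 2 libraries passed it as well. The same 8 rule genes stood at 352 and 371 CPM (UMIs per 1,000,000 UMIs of the barcodes summed) in the other barcodes of these libraries, against 28.1 to 69.2 CPM in the other Mlh3-/- libraries and 5.60 to 31.3 CPM in wild type. The main results are given with and without Mlh3-/- replicates 1 and 3. The Mlh3 gene stood at 26.2 to 86.5 CPM in Mlh3-/- libraries and 10.7 to 72.9 in wild type, and the Cul4a gene at 49.0 to 54.5 CPM in Cul4a-/- libraries and 5.60 to 45.7 in wild type. The deleted part is not given in the sources used here, so these 3′ counts do not check the genotype labels.

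The transcripts that chose the macrophages were mostly Lyz2 and C1q. Lyz2 gave 693 of the 1456 rule UMIs and was detected in 78 of the 83 barcodes, C1qb 217 UMIs in 62, C1qc 198 in 58 and C1qa 76 in 39. At least 1 of the C1q genes was detected in 77 barcodes. Cd74 gave 90 UMIs in 19 barcodes, Csf1r 65 in 35, Fcer1g 59 in 36 and Tyrobp 58 in 32. A macrophage held a median of 9 rule UMIs (3 to 101), or 1.22% of its transcripts (0.302 to 6.14%). The threshold was crowded, with 10 macrophages at exactly 3 rule UMIs and 6 at 0.3 to 0.4% of UMIs, while 41 held 10 or more. Just outside it lay 23 barcodes with 2 rule UMIs from 2 genes, 20 of them Mlh3-/- and 3 wild type, and 18 barcodes with enough UMIs that made up 0.2 to 0.3%. The macrophages held 37.2% of all rule-gene UMIs. The ratio of C1qb to C1qc UMIs was 1.00 in the wild-type, 1.03 in the Mlh3-/- and 1.36 in the Cul4a-/- macrophages. Among the other barcodes it was 7.00, 1.17 and 12.2 in the same strains, so the rule-gene transcripts outside the macrophages had another make-up in wild type and Cul4a-/-. These values used the genes of the rule and are descriptions only. Lyz2 has a near-identical copy, as have several chemokine and MHC genes, and how reads shared between copies were counted is not given in the sources used here.

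Promoters of 4 genes with high macrophage counts are shown. They carry, or lack, GAGGAA, a longer form of the GGAA core bound by PU.1, the myeloid transcription factor encoded by Spi1. Each is the 200 bases before the RefSeq gene start (GRCm38.p6), printed 5′ to 3′ on the gene's strand, with GAGGAA or its complement TTCCTC in capitals. C1qb lies at chr4:136886201-136886400, C1qc at chr4:136892915-136893114 and Lyz2 at chr10:117282273-117282472, all on the minus strand, and Ctss, which encodes cathepsin S, at chr3:95526586-95526785 on the plus strand.
C1qb: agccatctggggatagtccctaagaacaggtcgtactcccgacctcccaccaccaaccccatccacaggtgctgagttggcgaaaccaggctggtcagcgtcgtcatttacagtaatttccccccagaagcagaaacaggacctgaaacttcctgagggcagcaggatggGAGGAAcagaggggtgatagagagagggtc
C1qc: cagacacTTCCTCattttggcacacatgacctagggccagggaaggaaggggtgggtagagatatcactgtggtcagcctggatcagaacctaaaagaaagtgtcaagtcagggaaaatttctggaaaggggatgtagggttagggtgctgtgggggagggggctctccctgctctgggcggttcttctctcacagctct
Lyz2: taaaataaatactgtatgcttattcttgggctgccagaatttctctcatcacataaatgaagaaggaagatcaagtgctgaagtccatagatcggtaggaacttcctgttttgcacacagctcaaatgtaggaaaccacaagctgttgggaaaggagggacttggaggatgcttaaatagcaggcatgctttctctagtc
Ctss: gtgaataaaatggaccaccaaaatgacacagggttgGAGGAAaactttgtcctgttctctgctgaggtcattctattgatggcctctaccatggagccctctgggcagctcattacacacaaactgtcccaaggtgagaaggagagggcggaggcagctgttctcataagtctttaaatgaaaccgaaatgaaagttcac
The motif lay 30 bases before the start in C1qb, 193 in C1qc on the opposite strand and 164 in Ctss. GAGGAA was not found in this window of Lyz2, nor in that of the rule gene Fcer1g, which is not printed. The shorter GGAA, which the Lyz2 sequence holds, was not counted. GAGGAA was present on either strand in 11 of the 22 listed macrophage genes with a promoter entry, 2 of 4 rule genes, and 5105 of all 27,025 promoters (18.9%). A match is a description of the letters and not a bound site.

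Barcodes that met the macrophage rule made up a larger share in Mlh3-/- and Cul4a-/- libraries than in wild type. Of the 61 in Mlh3-/-, 33 also passed the Leydig gate, as did 1 of 15 in Cul4a-/- and the 1 in CNP. The share of those outside that gate was not tested. They were 1.13 ± 1.21% of barcodes in Mlh3-/- (SD, n = 6), 0.259 ± 0.110% in Cul4a-/- (n = 2), 0.0511 ± 0.0723% in CNP eGFP BAC TRAP (n = 2) and 0.0183 ± 0.0276% in wild type (n = 11). The 6 Mlh3-/- libraries held 18 of 509 barcodes (3.54%, exact Clopper-Pearson 95% interval 2.11 to 5.53), 3 of 295 (1.02%, 0.210 to 2.94), 6 of 795 (0.755%, 0.277 to 1.64), 11 of 1468 (0.749%, 0.375 to 1.34), 10 of 2731 (0.366%, 0.176 to 0.672) and 13 of 3820 (0.340%, 0.181 to 0.581). The Cul4a-/- libraries held 5 of 2765 (0.181%, 0.0587 to 0.421) and 10 of 2967 (0.337%, 0.162 to 0.619). In wild type, replicates 5 and 7 held 2 macrophages each (0.0670 and 0.0674%), replicates 6 and 8 held 1 each (0.0337 and 0.0336%), and the other 7 held none. A count of 0, with a limit of 3 barcodes, allows a share of up to 2.97% in the 101 barcodes of wild-type replicate 1, 0.502% in replicate 2 and 0.273% in replicate 3. CNP replicate 1 held 1 of 978 (0.102%, 0.00259 to 0.568) and replicate 2 held 0 of 1547, which allows up to 0.194%. In each of the other wild-type libraries without macrophages it allows about 0.101%. Intervals and limits cover counting error only.

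Every Mlh3-/- and every Cul4a-/- library lay above every wild-type library. The difference from wild type was 1.11 percentage points in Mlh3-/- (two-sided exact permutation test over libraries, p = 8.08e-05, adjusted p = 0.000242 over the 3 strains). It was 0.241 points in Cul4a-/- (exact permutation p = 0.0128, adjusted p = 0.0192). Both p-values are the smallest that the 12,376 and 78 relabellings can give. It was 0.0328 points in CNP (exact permutation p = 0.167, adjusted p = 0.167). Without Mlh3-/- replicates 1 and 3 the Mlh3-/- share was 0.618% (difference 0.600 points, exact permutation p = 0.000733, adjusted p = 0.00220). Among mechanically dissociated HiSeq libraries it was 0.553% against 0.0252% (exact permutation p = 0.00202, adjusted p = 0.00606). With either Cul4a-/- library left out the Cul4a-/- difference was 0.162 or 0.319 points, and the exact permutation test could not go below the p of 0.0833 (adjusted p = 0.125) that it gave. Ages differed between the strains and their part in the shares was not tested. The labels give Mlh3-/- and Cul4a-/- the same genetic background, and wild type and CNP another. No wild-type library had the background of Mlh3-/- and Cul4a-/-. The part of background in the shares therefore cannot be told apart from that of the mutations and was not tested.

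The share of somatic barcodes moved with the macrophage share. Leydig-gate barcodes numbered 41 in wild type, 2081 in Mlh3-/-, 115 in Cul4a-/- and 13 in CNP, and Sertoli-gate barcodes 151, 988, 140 and 12. Mlh3-/- had 915 and 551 without replicates 1 and 3. Per 100 barcodes in the Leydig or the Sertoli gate there were 2.54 ± 4.19 macrophages in wild type (SD, n = 11), 2.96 ± 1.55 in Mlh3-/- (n = 6), 5.55 ± 0.626 in Cul4a-/- (n = 2) and 4.55 in CNP (n = 2, with 9.09 and 0). None of the 3 strains was past the test against wild type on this scale (exact permutation test, adjusted p = 0.826 for each). The wild-type libraries held only 1 to 30 such barcodes each, so the test could detect little. The difference was 0.429 per 100 in Mlh3-/- and 3.01 per 100 in Cul4a-/-. The Mlh3-/- mean was 3.25 ± 1.44 per 100 (n = 4) without replicates 1 and 3. The wild-type libraries spread from 0 to 11.1 per 100, with 7 of 11 at 0. This scale was chosen after seeing the data. A larger number of macrophages and a smaller number of germ cells per testis cannot be told apart by the share of barcodes.

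**Figure D1:**
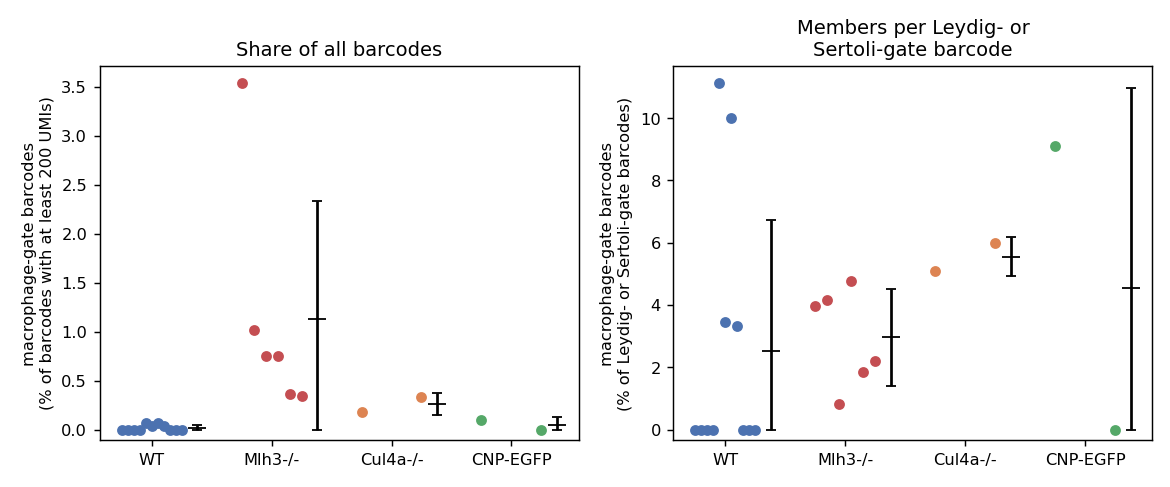
Macrophage barcodes as a percentage of all barcodes with at least 200 UMIs (left) and per 100 barcodes in the Leydig or the Sertoli gate (right). Each point is a library and bars are the mean ± SD, cut at 0. On the left all 6 Mlh3-/- and both Cul4a-/- libraries lie above all 11 wild-type libraries, and on the right the strains overlap.

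Transcripts that the rule did not use were then compared between the macrophages and the other barcodes of the same library. Of 4386 genes tested, 757 were higher in macrophages (17.3%) and 127 were lower (2.9%) at an adjusted p under 0.05 (edgeR quasi-likelihood test, Benjamini-Hochberg adjustment). The median log2 fold change over all genes was 0.42. The fit summed UMIs over macrophages and over other barcodes in the 7 libraries with at least 5 macrophages, Mlh3-/- replicates 1, 3, 4, 5 and 6 and both Cul4a-/- replicates, with library as a block. These sums rested on 5 to 18 macrophages and 4304 to 29,875 UMIs per library. A gene was tested only with at least 5 UMIs in the macrophages, so list members tested were those detected there, and counts over a list are descriptions. The scaling moved the split, to 715 higher and 276 lower with DESeq2 (median 0.08), 582 and 209 with library size alone (median 0.17) and 402 and 1101 with trimmed mean of M-values scaling over all genes (median −0.57).

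Other known macrophage genes were higher too. Of 30 listed, 27 passed the filter and all 27 were higher, with a median log2 fold change of 6.73, and all 27 were past the test under each of the 4 scalings. Ctss, a lysosomal protease of antigen-presenting cells, stood at 603, 869, 1634, 912 and 3047 CPM in the macrophages of Mlh3-/- replicates 1, 3, 4, 5 and 6 and at 1394 and 744 CPM in Cul4a-/-. The other barcodes of these libraries held 0.413 to 34.8 CPM, far below every macrophage sum (log2 fold change 7.83, SE 0.44, adjusted p = 3.78e-67). Mrc1, the mannose receptor CD206, stood at 769.9, 1336, 572, 1621, 2032, 929 and 1209 CPM against 2.17 to 119 (log2 fold change 6.14, SE 0.42, adjusted p = 1.25e-46). Pf4, a chemokine of resident macrophages and platelets, ranged from 167 CPM in Mlh3-/- replicate 1 to 2309 in replicate 6, against 0.719 to 49.6 outside. The groups did not overlap for Ctss, Mrc1 or Pf4. How many of all genes tested were likewise apart was not counted, so this is a description of these genes only.

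The transcription factors and surface receptors that define macrophages were present at low counts. Spi1 gave 12 UMIs in the macrophage sums, 81.7 to 232 CPM against 0.345 to 4.17 (log2 fold change 6.93, SE 1.13, adjusted p = 4.22e-08). The macrophage factor Maf was higher by 5.30 (SE 0.45) on the log2 scale. Adgre1, which encodes the antigen F4/80, was detected in the macrophages of 4 of 7 libraries with 13 UMIs (log2 fold change 6.73, SE 1.35, adjusted p = 1.72e-05). The fractalkine receptor gene Cx3cr1 ranged from 134 to 1293 CPM against 1.13 to 18.5, and the microglial and macrophage receptor gene Trem2 from 66.8 to 1394 CPM against 0.205 to 16.9. The scavenger receptor gene Cd163 was absent from the macrophages of Cul4a-/- replicate 1 and reached 1418 CPM in Mlh3-/- replicate 5. Aif1 was the exception in its background, since the other barcodes of Cul4a-/- held 593 and 728 CPM and those of Mlh3-/- 2.53 to 21.8.

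Transcripts of other blood cells were few. Among the 83 macrophages, 15 T and NK cell genes gave 2 UMIs, both of Il2rg, with Cd3d, Cd3e and Cd3g at 0. The B cell list gave 12 UMIs (Ighm 9 and Cd79b 3), the dendritic cell list 8 (Itgae 7), the neutrophil and monocyte list 1, the mast cell list 3 and the red cell list 9. Ighm was higher than in the other barcodes (log2 fold change 6.61, SE 1.35, adjusted p = 2.43e-05), and Itgae was not past the test (−1.28, SE 0.62, adjusted p = 0.132), except with scaling over all genes (−2.33, adjusted p = 0.00115, range 0.00115 to 0.409).

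**Figure D2:**
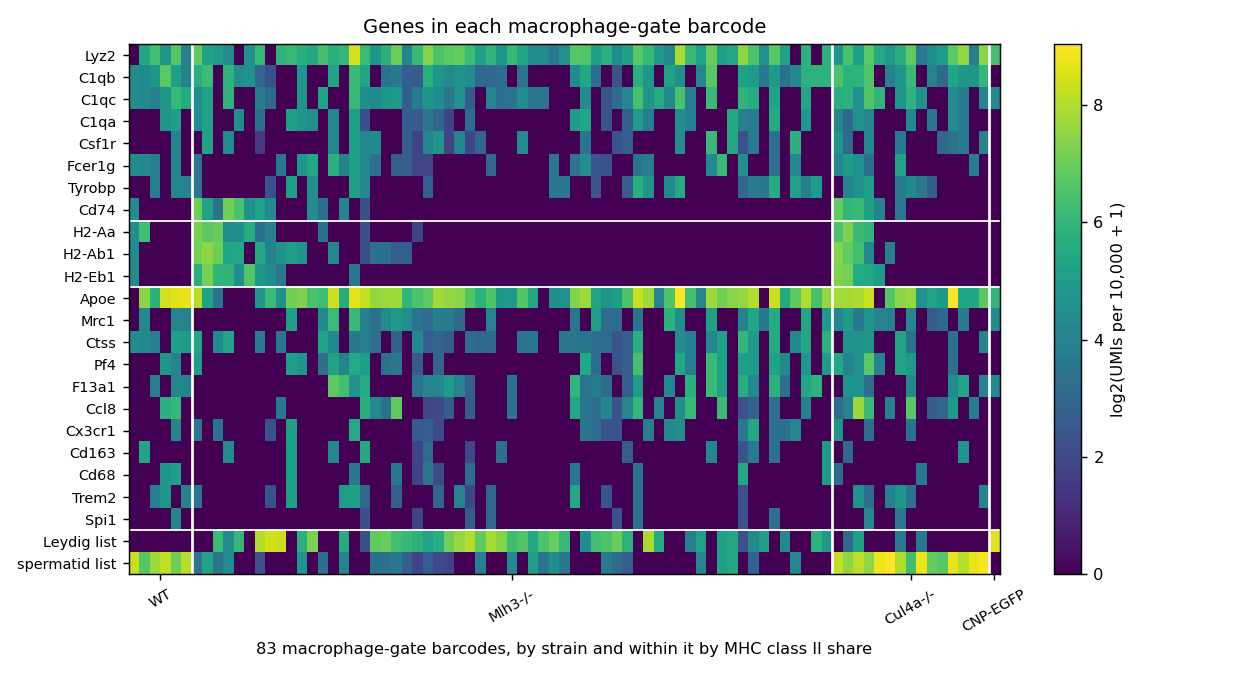
UMIs per 10,000 (log2 of the value plus 1, colour) for each of the 83 macrophage barcodes (columns, grouped by strain and ordered by the MHC class II share) and for rule genes, MHC class II genes, other macrophage genes and the summed Leydig and spermatid lists (lines of the map). Lyz2 and C1q counts run across all strains, while MHC class II counts sit in a minority of barcodes.

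Many genes for presenting antigen, degrading proteins and taking up dead cells were higher in the macrophages than in the other barcodes. Of the MHC class II list, 4 of 5 tested genes were higher (median 6.13), and H2-DMb1 was not past the test (1.92, adjusted p = 0.201). H2-Aa, an MHC class II chain, stood at 402, 66.8, 654, 507 and 462 CPM in the Mlh3-/- macrophages and at 1394 and 3535 CPM in Cul4a-/-, against 0.826 to 13.4 CPM outside (log2 fold change 7.67, SE 0.49, adjusted p = 5.64e-53). H2-Eb1 was not detected in the macrophages of Mlh3-/- replicate 3 and reached 4093 CPM in Cul4a-/- replicate 2. Of the MHC class I list, 4 of 5 were higher, among them B2m, the shared light chain, at 1971 CPM over all macrophages against 70.9 outside.

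Of 20 lysosome and protease genes, 18 were higher (median 3.38) and none lower. Ctsb, which encodes cathepsin B, stood between 1395 and 2736 CPM in the 7 macrophage sums and between 13.8 and 303 outside (log2 fold change 4.99, SE 0.35, adjusted p = 1.49e-42). Grn, the gene for the lysosomal protein progranulin, was higher by 6.08 (SE 0.43) and Lamp1, a membrane protein of all lysosomes, by 1.19 (adjusted p = 0.00363), but by 0.13 with scaling over all genes (adjusted p = 0.804, the range over its alternatives being 0.000815 to 0.804). Of the 18 lysosome genes, 16 were past the test with that scaling. Of 20 listed genes for the uptake of apoptotic cells 10 were tested and 8 were higher (median 2.80), of which 4 were past the test with scaling over all genes and 7 with DESeq2 or library size alone. They included the scavenger receptor gene Stab1 (7.17, SE 0.77), the receptor genes Axl (3.94, SE 0.89) and Mertk (2.84, SE 0.96), and Gas6, the ligand of both receptors (3.74, SE 0.49). Mfge8, a bridge to phosphatidylserine, was not past the test (1.07, SE 0.89, adjusted p = 0.423).

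Apoe, the apolipoprotein that carries cholesterol between cells, had 1149 UMIs in the macrophage sums. It stood at 12,017, 5679, 8579.8, 18,946, 16,622, 15,102 and 15,628 CPM in the 7 libraries. The other barcodes held 931 and 776 CPM in Mlh3-/- replicates 1 and 3, 160.1 to 287 in the other Mlh3-/- libraries and 80.5 and 88.1 in Cul4a-/- (log2 fold change 6.02, SE 0.29, adjusted p = 4.08e-91). Of 16 listed lipid genes 9 were tested and 6 were higher (median 3.08). They included Pltp, the phospholipid transfer protein (6.09, SE 0.63), and the cholesterol exporter gene Abca1 (3.00, SE 0.45). Apoc1 was not past the edgeR test (0.78, SE 0.52, adjusted p = 0.301), but was without Mlh3-/- replicates 1 and 3 (1.85, adjusted p = 0.0445, range 0.0445 to 0.966). All 8 tested iron and heme genes were higher, with Ftl1 and Fth1, the ferritin chains, up by 4.26 (SE 0.43) and 2.79 (SE 0.29). The iron exporter of phagosomes, Slc11a1, was up by 7.72 (SE 1.42).

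Chemokine, complement and interferon genes followed. Of 22 listed chemokine and cytokine genes 5 were tested and all 5 were higher (median 6.54). Ccl8, which attracts monocytes and lymphocytes, stood at 1004, 668, 735, 2128 and 369 CPM in Mlh3-/- and at 6970.3 and 1581 in Cul4a-/-, against 1.13 to 77.9 outside (log2 fold change 7.74, SE 0.45, adjusted p = 1.86e-63). Of 14 listed complement genes 5 were tested and all 5 were higher (median 5.82), including C3ar1, the C3a receptor (6.36, SE 1.20). Of 16 listed interferon response genes 7 were tested and all 7 were higher (median 3.95). Of 17 immediate early and stress genes, a set that dissociation of tissue is known to raise, 11 were tested. Of these 9 were higher (median 3.80), among them Fos (5.07, SE 1.09). Igf1, a growth factor, was higher by 4.53 (SE 0.49). Of 12 tested genes near Alzheimer disease risk loci, a theme that the study raised on these samples and so no independent evidence, 8 were higher (median 2.08), including Apoe, Trem2, Bin1 (5.85, SE 0.80) and Clu (1.17, SE 0.33), and 5 of these 8 were past the test with scaling over all genes. Clu was past it neither with that scaling (0.13, adjusted p = 0.787), nor with DESeq2 (0.79, adjusted p = 0.0714), nor with library size alone (0.89, adjusted p = 0.0602), the range over its alternatives being 0.000291 to 0.852. Picalm was not past the test (1.44, adjusted p = 0.0804). Without Mlh3-/- replicates 1 and 3 Picalm was past it (2.24, adjusted p = 0.0155, range 0.0155 to 0.596).

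**Figure D3:**
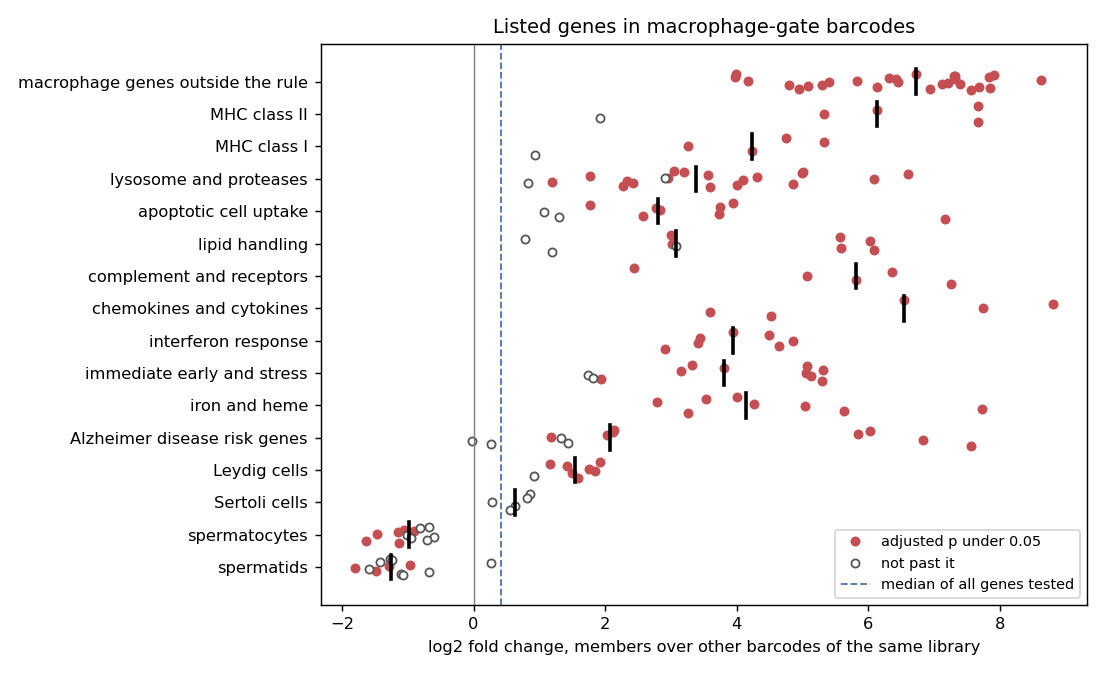
Log2 fold change of each listed gene tested, macrophages against the other barcodes of the same 7 libraries. Filled points are past an adjusted p of 0.05, black bars are list medians and the dashed line is the median of all 4386 genes (0.42). The macrophage, MHC class II, complement and chemokine lists have medians of 5.82 to 6.73, and the spermatocyte and spermatid lists have medians below 0.

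Outside the lists, the genes with the smallest adjusted p that were higher in every library included Wfdc17 (7.89, SE 0.45, adjusted p = 4.9e-65), the coagulation factor gene F13a1 (6.74), the endocytic adaptor gene Dab2 (6.51), the lectin receptor genes Clec4n (8.34) and Clec10a (6.42), Cst3, which encodes the protease inhibitor cystatin C (3.66), and the actin-binding Tmsb4x (4.00). Those lower in every library included Ppp3r2 (−2.20), Prdx6b (−2.35), Tuba3a (−1.51), Fabp9 (−1.23) and Pias2 (−2.36). Of the spermatocyte list 6 of 12 were lower and none higher, with Ldhc, the germ cell lactate dehydrogenase, at −1.06 (adjusted p = 0.000395). Of the spermatid list 4 of 12 were lower (2 with library size alone and 1 with DESeq2), with the protamine gene Prm2 at −1.80 (adjusted p = 0.00264). The protamine genes Prm1 and Prm2 and the sperm gene Smcp turned positive with DESeq2 size factors (5.19, 3.74 and 5.09). Prm1 had no UMI in the macrophages of any Mlh3-/- library and stood at 6506 and 6233 CPM in those of Cul4a-/-, against 12,960.1 and 11,948 CPM in the other Cul4a-/- barcodes.

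Transcripts of other testis cells lay in the macrophage barcodes too. The Leydig list gave 808 UMIs in 51 of 83 macrophages (8107 CPM, against 888 CPM in the other barcodes), and 7 of its 8 genes were higher than in the other barcodes, among them the steroid enzymes Cyp11a1 (1.92, adjusted p = 6.91e-05) and Cyp17a1 (1.16, adjusted p = 0.00951) and the cholesterol importer Star (1.60, adjusted p = 0.00572). This count was 5 with library size alone, 2 with DESeq2 and 0 with scaling over all genes. Insl3, a Leydig hormone, was not past the test (0.92, adjusted p = 0.0522), but was past it without Mlh3-/- replicate 1, 3 or 6, without Cul4a-/- replicate 2, and without Mlh3-/- replicates 1 and 3 (1.57, adjusted p = 0.00366, the range over its alternatives being 0.00366 to 0.845). The Leydig list made up 1.18, 0.0679, 0.788, 1.60, 0.993 and 0.129% of macrophage UMIs in Mlh3-/- replicates 1 to 6, against 0.780, 0.127, 0.641, 0.146, 0.284 and 0.176% in the other barcodes. Single macrophages held most of these Leydig-list UMIs in replicates 4 and 5, with 137 and 89. The Leydig list was 0 in the wild-type macrophages and 3.96% in the 1 CNP macrophage, against 0.0110% in the other barcodes of its library. In Cul4a-/- it was 0.116% against 0.0349% in replicate 1 and 0.00930% against 0.0468% in replicate 2. Spermatid transcripts were 1.66 to 2.89% of macrophage UMIs in wild type and 3.00 and 2.55% in Cul4a-/-, against 3.58 to 4.83% and 5.46 and 5.64% outside. In Mlh3-/- they were 0.0327 to 0.0669% against 0.0719 to 0.144%. Of the 83 macrophages, 35 macrophages passed the Leydig gate and 8 the Sertoli gate, and no doublet caller was run. The part of doublets and of free RNA in these counts was not tested.

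**Figure D4:**
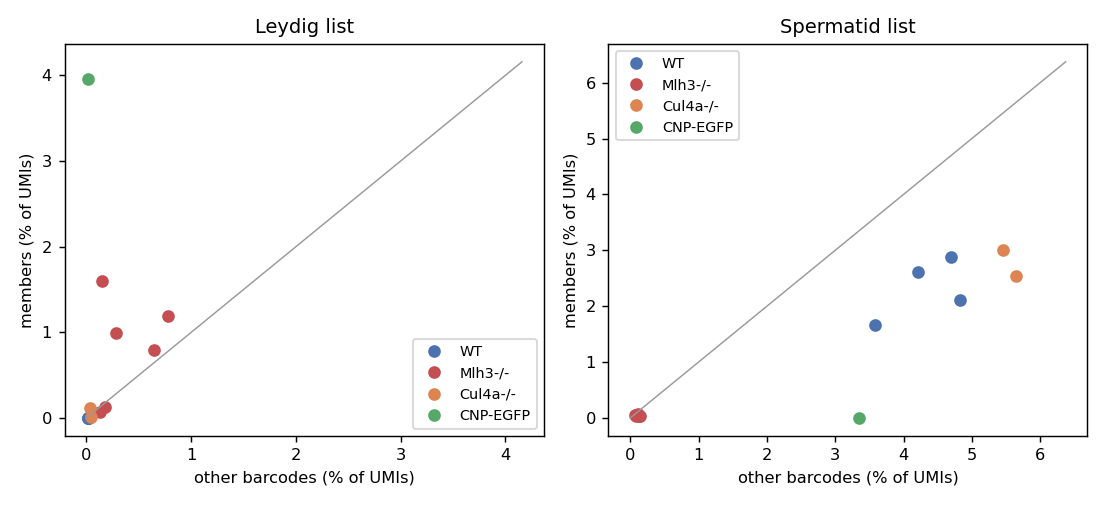
Leydig list (left) and spermatid list (right) as a percentage of UMIs in the macrophages (vertical axis) and in the other barcodes (horizontal axis), 1 point per library, with the line of equality. Spermatid transcripts lie below the line in the wild-type and Cul4a-/- libraries, and Leydig transcripts lie on both sides.

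Without Mlh3-/- replicates 1 and 3, 799 genes were higher and 58 lower. Of the list genes called above, all 27 macrophage, 4 MHC class II, 4 MHC class I and 18 lysosome genes and 7 Leydig genes were past the test again, but 4 of the 8 uptake genes (5 tested), 4 of 6 lipid (4 tested), 4 of 5 complement (4 tested), 4 of 5 chemokine (4 tested), 6 of 7 interferon (6 tested), 7 of 8 iron (7 tested), 7 of 8 Alzheimer risk (7 tested), 4 of 6 spermatocyte (5 tested) and 1 of 4 spermatid genes. With only the macrophages outside the Leydig and Sertoli gates, Mlh3-/- replicates 5 and 6 and Cul4a-/- replicate 2 were left. Of 1195 genes, 283 were then higher and 2 lower, and 267 of these calls were among those of the full comparison. Leaving out 1 library gave 585 to 927 calls, the lowest without Mlh3-/- replicate 6.

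Against Leydig cells, the neighbours of interstitial macrophages, macrophage genes were again higher, while 2 lipoprotein genes, Apoc1 and Clu, were lower. Of 1464 genes tested over 4 libraries (Mlh3-/- replicates 4, 5 and 6 and Cul4a-/- replicate 2), 182 were higher in macrophages (12.4%) and 16 lower (1.09%) by the same edgeR test, with a median of 0.48. Barcodes in both gates were left out, which leaves 5, 8, 12 and 10 macrophages. The split was 144 and 24 with DESeq2 (median 0.10), 188 and 15 with library size alone (0.54) and 143 and 39 with scaling over all genes (−0.18). Of the macrophage list 25 of 26 were higher (22 with DESeq2, 24 with scaling over all genes), as were 4 of 4 MHC class II genes, 4 of 4 chemokines, 3 of 5 MHC class I genes, 11 of 19 lysosome genes and 2 of 6 interferon genes. With DESeq2 and with scaling over all genes, 9 and 8 of the 11 lysosome genes were past the test and 0 of the 2 interferon genes. DESeq2 also left 3 of the 4 MHC class II genes and 3 of the 4 chemokines. Of 3 uptake genes tested 2 were higher (1 with DESeq2 and 1 with scaling over all genes). Neither Mlh3-/- replicate 1 nor 3 was in this comparison.

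Apoe stood at 18,789, 24,917, 18,094 and 15,628 CPM in these macrophages and at 1359, 1367, 1391 and 2738 CPM in the Leydig gate (log2 fold change 3.45, SE 0.41, adjusted p = 8.26e-15). Every macrophage sum of Apoe was above every Leydig sum, and how many other genes were likewise apart was not counted. Pf4 differed by 7.84, Ctss by 6.83 and Mrc1 by 5.86 on the log2 scale. Apoc1 was lower in the macrophages, at 0, 600.4, 101 and 0 CPM against 769 to 1258 (−2.63, adjusted p = 0.00189). Clu, which encodes the extracellular chaperone clusterin, was lower too, at 186 to 1307 CPM against 1972 to 2886 (−1.93, adjusted p = 0.00169). Outside the lists Lcn2, the iron-binding lipocalin (−5.16), Ptgds, a prostaglandin synthase (−4.55), and Gstm1 (−3.66) were lower, while Wfdc17 (7.58), F13a1 (7.24), Cbr2 (7.35) and Fcrls (8.22) were higher. Fth1 (0.94, adjusted p = 0.146, or 1.23 and 0.0144 without Cul4a-/- replicate 2, range 0.0144 to 0.952) and Fos (2.18, adjusted p = 0.11) were not past the test. Calls numbered 111 without Mlh3-/- replicate 5 and 93 without replicate 6.

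Against Sertoli cells, the nurse cells of the tubule, 433 of 3675 genes were higher in macrophages (11.8%) and 15 lower (0.408%) by the same test over 6 libraries (Mlh3-/- replicates 1, 4, 5 and 6 and both Cul4a-/- replicates), with a median of 0.39. The split was 236 and 33 with DESeq2 (0.02), 359 and 31 with library size alone (0.14) and 260 and 301 with scaling over all genes (−0.43). All 27 tested macrophage genes were higher (23 with DESeq2), as were 4 of 5 MHC class II, 17 of 20 lysosome, 5 of 5 chemokine and 8 of 8 iron genes. With DESeq2, 4 of these MHC class II, 13 of these lysosome, 3 of these chemokine and 6 of these iron genes were past the test. Of 8 uptake genes tested 3 were higher (2 under each other scaling and without Mlh3-/- replicate 1), and 7 of 8 Leydig genes were higher as well (median 1.81), of which 2 were past the test with DESeq2 and 1 with scaling over all genes. Without Mlh3-/- replicate 1 (replicate 3 was not in this comparison), 328 genes were higher and 12 lower, with 14 of the 17 lysosome, 4 of the 5 chemokine, 6 of the 8 iron and 5 of the 7 Leydig genes past the test. Apoe stood at 12,017 to 20,013 CPM in macrophages of 5 of these libraries and 9117 in the other, Mlh3-/- replicate 4, against 125 to 987 (log2 fold change 6.05, SE 0.41, adjusted p = 1.3e-46). Mrc1 stood at 470.0 to 2261 CPM against 19.0 to 119 (4.32). Clu was lower at −1.31 (adjusted p = 0.00537), with 2745 CPM in macrophages and 2676 in Sertoli-gate barcodes of Mlh3-/- replicate 1 but 186 against 2693 in Cul4a-/- replicate 2. Lower outside the lists were the creatine synthesis gene Gatm (−2.25) and Tsx (−2.26).

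MHC class II UMIs lay mostly in the macrophages with a UMI of Cd74, itself a gene of the rule. The 19 with a Cd74 UMI held 90 of the 95 H2-Aa UMIs, 110 of 120 for H2-Ab1 and 92 of 94 for H2-Eb1. The other 64, with a similar median depth (940.5 against 887 UMIs), held 5, 10 and 2. Of their 5 H2-Aa UMIs, 4 came from 1 macrophage of wild-type replicate 5. In CPM, H2-Aa was 3885 against 65.4, H2-Ab1 4749 against 131 and H2-Eb1 3972 against 26.1. The 2 sets were close in Apoe (12,476 with Cd74 and 13,123 without) and Csf1r (648 and 654). With Cd74, Mrc1 was 734 CPM against 1216, Lyz2 5396 against 7424, Folr2 173 against 274 and F13a1 1036 against 1372, while Cd163 was 604 against 248, Pf4 1684 against 889 and Ccl8 1856 against 1163. Without Mlh3-/- replicates 1 and 3 the sets held 18 and 41 macrophages, with H2-Aa at 3517 against 122 CPM, Mrc1 at 767 against 1531, Apoe at 12,988 against 17,180.1 and Pf4 at 1759 against 1746. Single libraries decided several of these levels. F13a1 had 24 UMIs with Cd74, of which 13 and 5 came from macrophages of Mlh3-/- replicate 5, and Folr2 had only 4. Of the 14 Cd163 UMIs with Cd74, 12 came from 1 macrophage, and without its library, Mlh3-/- replicate 5, Cd163 was 117 CPM against 234. Without Cul4a-/- replicate 1, Ccl8 was 1164 against 1042, and without Cul4a-/- replicate 2, Pf4 was 1008 against 956 and Mrc1 371 against 1284. The dendritic cell list gave 2 UMIs in the set with Cd74 and 6 in the other, and the Leydig list 10,922 and 7254 CPM. Of the 253 Leydig-list UMIs with Cd74, 137 and 89 came from single macrophages of Mlh3-/- replicates 4 and 5. Those of the other set came mostly from Mlh3-/- replicates 1 and 3. Macrophages with Cd74 were 1 of 6 in wild type (replicate 7), 1, 1, 0, 5, 3 and 2 in Mlh3-/- replicates 1 to 6, and 2 and 4 in the Cul4a-/- replicates. Some of the 19 met the rule only through Cd74, among them 1 of Mlh3-/- replicate 1 with 12 of the 90 H2-Aa UMIs. The split is thus partly made by the rule. Cd74 is a gene of the rule and the split was made on values of the same barcodes, so no test was run.

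Between strains, macrophage transcripts could be tested only for Mlh3-/- against Cul4a-/-, since no wild-type or CNP library held 5 macrophages. This test was added after seeing the data. Of 4386 genes, 20 were higher in Mlh3-/- macrophages (0.456%) and 83 lower (1.89%) over 5 and 2 libraries (edgeR quasi-likelihood test), with a median of 0.30. The split was 13 and 15 with DESeq2, 20 and 89 with library size alone and 21 and 43 with scaling over all genes. None of the 27 macrophage genes was past the edgeR test or, among the 23 with an adjusted p, past DESeq2, and 1 of them, Aif1, had an unadjusted p under 0.05. Among those with high counts, Ctss was at 0.55 (adjusted p = 0.786), Mrc1 at 0.28 (adjusted p = 0.953) and Pf4 at −0.69 (adjusted p = 0.62). The lipid gene Apoe was at −0.24 (SE 0.54, adjusted p = 0.94). Pooled over the 6 wild-type macrophages, Apoe was 23,036 CPM (78 UMIs) and Lyz2 4725 CPM (16 UMIs). Mrc1 had 3 UMIs, H2-Aa 5 and Ccl8 6. H2-Aa was 1477 CPM and 471 CPM without wild-type replicate 5, and Ccl8 was 1772 CPM, 2828 CPM without replicate 5 and 871 CPM without replicate 7.

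Of 5 MHC class II and 5 chemokine genes tested, 2 and 3 were lower in Mlh3-/- than in Cul4a-/- macrophages. H2-Aa (−2.53, SE 0.62, adjusted p = 0.00459) and H2-Eb1 (−2.04, SE 0.60, adjusted p = 0.0308) were the MHC class II genes past the test, and H2-Ab1 was not (−1.58, adjusted p = 0.232), with 2451 CPM in Mlh3-/- replicate 4 against 1859 and 3442 in Cul4a-/-. A Leydig-gate macrophage of Mlh3-/- replicate 4 held 24 of its H2-Ab1 UMIs. Without Mlh3-/- replicate 4, H2-Ab1 was past the test (−2.46, adjusted p = 0.0137, range 0.0137 to 0.679). Ccl8 (−1.996, SE 0.58, adjusted p = 0.0282), Ccl12 (−6.16, adjusted p = 4.75e-09) and Ccl24 (−2.70, adjusted p = 0.0425) were the chemokines past it. For Ccl12, 33 of 34 UMIs came from Cul4a-/- replicate 2. With DESeq2 none of these 5 was past the test, with log2 fold changes of −2.44 for H2-Aa (adjusted p = 0.0679), −1.90 for H2-Eb1 (adjusted p = 0.590), −1.75 for Ccl8, −6.20 for Ccl12 and −2.41 for Ccl24. With scaling over all genes H2-Aa and Ccl12 were past it. Without Cul4a-/- replicate 2, H2-Aa was −1.39 (adjusted p = 0.648, the range over its alternatives being 0.00298 to 0.648), and without Cul4a-/- replicate 1, Ccl8 was −0.54 (adjusted p = 0.818, range 0.0219 to 0.987). Without Mlh3-/- replicates 1 and 3, H2-Eb1 was −1.28 (adjusted p = 0.306, range 0.00353 to 0.870), and of the 3 chemokines Ccl12 alone was past the test. In Cul4a-/-, H2-Aa rested on few macrophages. A Leydig-gate macrophage held the 6 UMIs of replicate 1, and macrophages with 20, 11 and 7 held those of replicate 2. Strain here cannot be told apart from age.

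Genes of other cells moved with the strain. Of the Leydig list 4 of 8 were higher in Mlh3-/- macrophages (2 with DESeq2), with Cyp17a1 at 234 against 0 UMIs and Insl3 up by 4.33 (adjusted p = 0.00722), and Clu was higher by 3.40 (SE 0.89, adjusted p = 0.011). Clu was at 2.83 without Mlh3-/- replicates 1 and 3 (adjusted p = 0.0588, the range over its alternatives being 0.00349 to 0.774), and it was not past the test when either Cul4a-/- library was left out. Of the spermatid list 10 of 12 were lower (7 with DESeq2, and 8 without Mlh3-/- replicates 1 and 3), with 0 against 95 UMIs for Prm1. Outside the lists Lcn2 had 486 against 0 UMIs, and mt-Rnr1 (5.92), Gstm1 (5.88) and Ptgds (3.39) were higher. The median mitochondrial share of macrophage UMIs was 4.15 to 16.5% in the Mlh3-/- libraries and 2.15 and 1.74% in Cul4a-/-. Among macrophages with at most 10%, 27 genes were past the test, but Mlh3-/- replicates 3 and 6 then held too few macrophages to enter it. Outside the Leydig and Sertoli gates only Mlh3-/- replicates 5 and 6 and Cul4a-/- replicate 2 held at least 5 macrophages. With 1 Cul4a-/- library, no conclusion on the strain difference can be drawn from that fit (median log2 fold change −0.15). DESeq2 over all macrophages gave 28 calls. The number of calls was 18 without Cul4a-/- replicate 2, 51 without Cul4a-/- replicate 1, and 63 and 65 without Mlh3-/- replicates 1 and 3. The part of Leydig and germ cell RNA and of the mitochondrial share in the strain difference was not tested further.

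**Figure D5:**
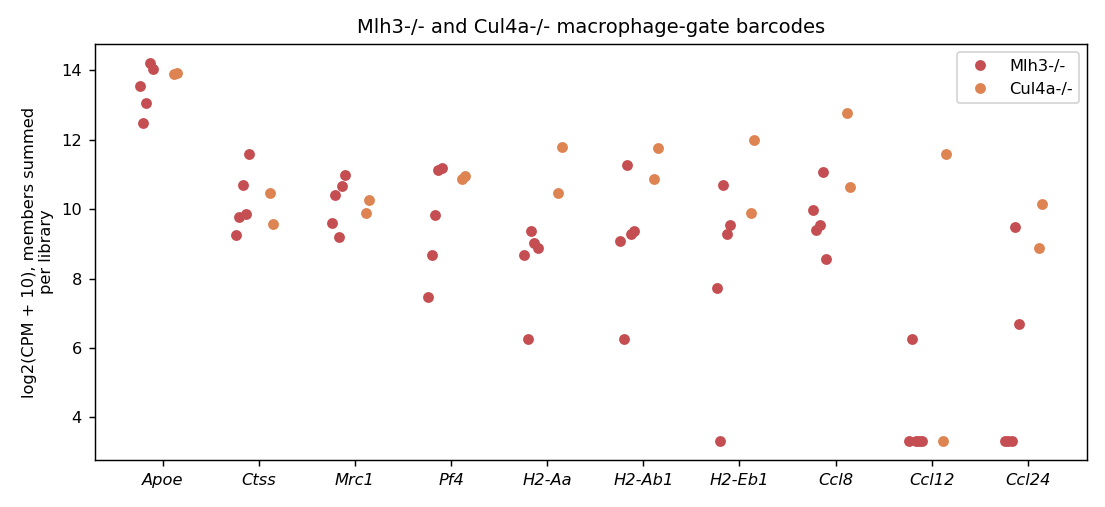
Level of 10 genes in the summed macrophages of each library, as log2(CPM + 10), for Mlh3-/- (5 libraries) and Cul4a-/- (2 libraries). Apoe, Ctss, Mrc1 and Pf4 overlap between the strains. Both Cul4a-/- libraries lie above all 5 Mlh3-/- libraries for H2-Aa, whose Cul4a-/- UMIs came from few macrophages.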

How the data were processed

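Deposited tables held raw UMI counts per gene and barcode, which the authors made from Drop-seq reads (bcl2fastq, STAR 2.5.3a, GRCm38/mm10 per the submitters' processing notes; Drop-seq tools per the study's methods). Rows without UMIs in a library are counted as 0. Groups came from the labels. The rule, the members and the gene lists were chosen with earlier results of these data known. Shares were compared over libraries with two-sided exact permutation tests, Benjamini-Hochberg adjusted over 3 strains. For genes, UMI counts were summed per library over macrophages and over comparison barcodes in libraries with at least 5 macrophages, genes with at least 5 macrophage UMIs were kept, and edgeR 4.0.16 (quasi-likelihood, library as block, limma 3.58.1, R 4.3.3) was used. Scaling was TMM over the 200 genes most abundant in both sets, a change from plain TMM made after tests on simulated data. A log2 fold change of a gene near 0 in 1 set depends on the prior count. Genes named are the 8 rule genes as description, listed genes by list, those past an adjusted p of 0.05 first, and for each test genes outside the lists from the 10 with the smallest adjusted p per direction that had the same sign in every library. Leydig and Sertoli gates used other gene lists. The alternatives were other rule thresholds, thinning to 200 UMIs, other filters and scalings, DESeq2 1.42.0, a mitochondrial limit of 10%, blocks, and leaving out libraries. Depth per library was 357,235 to 9,745,302 UMIs. Python 3.11.15 with scipy 1.17.1 was used for gates and shares. The 4 sorted samples entered no comparison, and some listed genes are not reported here. RefSeq promoters (GRCm38.p6) matched 22 of the 30 macrophage genes outside the rule.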

Additional observations from a re-analysis of the deposited data

Results flagged for a closer look

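Of 14 groups of 4 to 10 libraries checked for a value far from the others, 4 had one, and chance gives about 1 in 20. Mlh3-/- replicate 1 had the highest macrophage share, 3.54% of its barcodes, against 1.02% in the next. In the Mlh3-/- macrophages, Ccl12 was 66.8 CPM (1 UMI) in replicate 3 and 0 in the others, and Ccl24 was 709 CPM in replicate 5 and 92.3 CPM in the next. H2-Ab1 was 2451 CPM in replicate 4 and 646 CPM in the next. A Leydig-gate macrophage of replicate 4 held 24 of its H2-Ab1 UMIs, and H2-Ab1 was 561 CPM in its macrophages outside the Leydig gate. In the sorted samples, which no comparison used, 1 of 154 barcodes labelled SPCII met the macrophage rule (0.649%, exact Clopper-Pearson 95% interval 0.0164 to 3.56), and none of 292 SPG, 198 SPCI and 291 SPD barcodes did.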

How the results depend on the processing

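The larger macrophage shares of Mlh3-/- and Cul4a-/- kept their direction under every setting run, but their size depended on depth. Median UMIs per barcode were 403 to 1907 in wild-type, 430 to 2175 in Mlh3-/- and 1196 to 1703 in Cul4a-/- libraries. With every barcode thinned to 200 UMIs, 4, 30 and 5 macrophages remained in these strains. The difference was then 0.514 points in Mlh3-/- and 0.0745 in Cul4a-/- (exact permutation adjusted p = 0.000242 and 0.0192). The Mlh3-/- difference was 0.627 to 1.27 percentage points with 1 library left out (0.627 without Mlh3-/- replicate 1), and the Cul4a-/- difference 0.162 to 0.319, with exact permutation adjusted p of 0.0227 to 0.125 (the latter the smallest that 1 library against 11 can give). Per Leydig- or Sertoli-gate barcode the differences were 0.429 and 3.01 points and not past the test. With the replicate number as a block (chosen after seeing the data), the differences in share of all barcodes were 1.11 (exact permutation p = 0.03125, adjusted p = 0.0938) and 0.259 (p = 0.5, adjusted p = 0.75). The unadjusted values are the smallest that 6 and 2 pairs can give. The replicate numbers did not pair the samples: deviations correlated by −0.406 to 0.209 over 6 pairs and 1 library was closest to its own number. The CNP difference, not past the test, fell below 0 with a 1% minimum (−0.00917), with 3 rule genes or without Cd74 and Lyz2 (−0.0183 each), after thinning (−0.0122), and was −0.0183 to 0.0839 with 1 library left out.

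Calls against the other barcodes (884) were 1503 with scaling over all genes, 285 outside the other gates and 585 to 927 leaving out 1 library. Those against Leydig-gate barcodes (198) were 98 in libraries with at least 10 macrophages and 93 to 192 leaving out 1. Those against Sertoli-gate barcodes (448) were 256 with edgeR's filterByExpr, 269 with DESeq2, 190 in libraries with at least 10 macrophages, 252 at a mitochondrial share of at most 10% and 305 to 385 leaving out 1. Mlh3-/- against Cul4a-/- (103) gave 62 without a filter, 37 with filterByExpr, 28 with DESeq2, 64 with scaling over all genes, 7 at 10 macrophages, 44 at 5 rule UMIs, 27 at the mitochondrial limit, 0 outside the gates (edgeR, 167 unadjusted), 56 without Mlh3-/- replicates 1 and 3, 63 on HiSeq and 18 to 110 leaving out 1. Without the library block (no replicate block) the first 3 counts were 740, 191 and 424.

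With DESeq2, Prm1 (5.19), Prm2 (3.74) and Smcp (5.09) reversed against the other barcodes, and Prm2 (1.74) against Sertoli-gate barcodes. Among genes not past the test, Apoc1 (−0.16) and Insl3 (−0.11) turned negative against the other barcodes with scaling over all genes, and Apoc1 without Mlh3-/- replicate 5 (range −0.0596 to 1.29 leaving out 1 library). Between strains Apoe turned to 0.0487 at 5 rule UMIs, 0.27 outside the gates, 0.13 with scaling over all genes, 0.0393 without Cul4a-/- replicate 2 and 0.00569 without Mlh3-/- replicate 3 (range −0.316 to 0.0393 leaving out 1), Mrc1 to −0.25 at the mitochondrial limit and Pf4 to 0.32 outside the gates. The other named genes kept their direction under the settings run. Sums of 5 to 18 barcodes limit all gene tests, and wild-type macrophages were too few to test.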
